A study of Drosophila melanogaster with 23 samples.

Results

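roX1 and roX2 are the genes of the 2 noncoding RNAs that take part in dosage compensation of the Drosophila X chromosome, and their surroundings were followed in 7 Hi-C contact maps. Each locus was taken as a window of 120 kb that holds the gene, chosen by position alone, from X:3800001 to 3920000 for roX1 and from X:11520001 to 11640000 for roX2 on the dm6 genome build. The windows hold 12 bins of 10 kb each, so 24 of the 2300 bins that make up the first 23 Mb of the X and of the 13256 bins of the 5 long chromosome arms. After bins with very few contacts were left out, 23 of these 24 bins remained, of 2185 on the X and 12600 on the 5 arms. The bin left out is X:11590001–11600000 in the roX2 window, which is covered by the tandem pseudogenes CR43211 to CR43214 and by parts of CR43215 and rho-4.

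In Drosophila males the single X is transcribed more strongly than each X of females, and the MSL complex that does this carries the roX RNAs. The complex is thought to load first at a limited set of high-affinity sites, which include the roX genes themselves, and to reach active genes elsewhere on the X from there. GA-rich elements, bound by the zinc finger protein Clamp, mark such sites, and short roX boxes near the end of each RNA are bound by the helicase Mle. roX1 is the larger RNA and is transcribed early in embryos of both sexes, whereas roX2 comes on later.

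The study asked what heterochromatin protein 1a (HP1) does for chromosome folding when the zygotic genome is first transcribed and in differentiated cells. Hi-C counts how often 2 stretches of DNA are ligated to each other after crosslinking and digestion, here with DpnII. Embryos were at stage 5, from 1 h collections aged for 2 h, and were of 4 kinds. Control embryos came from Bloomington stock 36303 (7 libraries), and HP1-KD embryos from mothers in which a hairpin of stock 33400 was driven in the female germ line by the Gal4 line 7063 (5 libraries). The labels list line 7063 for all 4 kinds of embryo, the control included. The knockdown is partial, since full depletion stops development before this stage. HP1-rescue embryos carried the same knockdown together with the transgene pUASP::Flag-HA-HP1 (3 libraries), and H3K9M embryos expressed pUASP::H3.3K9M, a histone that cannot be methylated at lysine 9, from the same driver line (2 libraries). S2 cells, a cultured line of male embryonic origin, received 60 ug of double-stranded RNA against GST as control, or HP1 dsRNA 1 or HP1 dsRNA 2, and were grown for 4 days (2 libraries each). The authors pooled libraries into 1 map per group, and for HP1-KD it is unsure whether all 5 of the 23 labelled libraries are in the pool, so no map has a replicate, no test between groups was possible and every interval given covers counting error only. The labels do not give the sex of the embryos. Whole contacts within the X ranged from 38875986 in control embryos through 23661831 in HP1-KD, 9721198 with HP1-rescue and 7676040 in H3K9M to between 3296977 and 5275898 in the S2 maps. Contacts per X bin stood at 0.730 to 0.794 of the autosomal level in the embryo maps and at 0.539 to 0.557 in the S2 maps.

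roX1 lies on the minus strand at X:3857230–3862697, a gene of 5468 bases, between the 3′ end of ec, which overlaps it, and the oligopeptide transporter gene yin. roX2 lies on the plus strand at X:11579065–11580432, a gene of 1368 bases, between CG11695 and the kinesin-like gene nod. The stretches of each gene that hold its GA repeats and its roX boxes are given here because they are the known docking elements of these loci. They were read from the RefSeq sequence of Release 6 (dm6), on the strand of the gene and 5′ to 3′. Capitals mark runs of GA repeated 3 times or more (GAGAGA, in either phase and on either strand) in the first and the third, and matches to the roX box GTTNTACG in the others.
roX1 GA element, X:3861227–3861375, minus strand: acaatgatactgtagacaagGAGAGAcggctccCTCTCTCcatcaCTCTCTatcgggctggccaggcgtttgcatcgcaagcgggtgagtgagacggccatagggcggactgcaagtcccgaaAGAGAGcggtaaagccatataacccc
roX1 roX boxes, X:3858895–3859060, minus strand: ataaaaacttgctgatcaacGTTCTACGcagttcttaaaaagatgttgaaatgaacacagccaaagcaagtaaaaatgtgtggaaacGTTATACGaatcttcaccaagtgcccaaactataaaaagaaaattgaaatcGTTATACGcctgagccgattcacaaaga
roX2 GA element, X:11580183–11580294, plus strand: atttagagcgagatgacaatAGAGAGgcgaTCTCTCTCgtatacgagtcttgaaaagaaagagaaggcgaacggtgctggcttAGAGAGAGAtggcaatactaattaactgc
roX2 roX boxes, X:11580059–11580171, plus strand: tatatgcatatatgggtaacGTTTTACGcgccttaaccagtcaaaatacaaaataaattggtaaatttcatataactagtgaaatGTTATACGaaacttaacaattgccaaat

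All GA runs of both genes lie in these stretches, 4 in roX1 and 3 in roX2. When the X was divided end to end into stretches of the same length, 8.13% of those as long as the roX1 GA element and 6.16% of those as long as the roX2 GA element held at least 1 such run, while as many runs as in the roX genes were held by 0.198% and 0.311%. A roX box on either strand was found in 1.02% and 0.680% of stretches of the lengths shown. No stretch cut this way held 3 boxes as roX1 does, among 138554, and 4 of 203539 held 2 boxes as roX2 does. Another 2 matches to the roX box lie on the opposite strand of roX1. The stretches shown were set around the matches of each gene, whereas stretches cut end to end can split a cluster, so these shares favour the roX genes and are given as a description. Over the whole windows GA runs were not dense. GA repeated 4 times was found 9 times in the roX1 window and 16 times in the roX2 window, against a median of 16 over all X windows of that length. The X as a whole held 1.39 of these longer runs per 10-kb bin, compared with 0.832 on 2L, 0.885 on 3L and 0.854 on 3R, whereas roX boxes were as frequent on the X (0.640 per bin) as on the 3 autosomal arms (0.639 to 0.643).

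The roX1 locus coincided with the sharpest contact boundary of the X in control embryos. Insulation was measured at each bin as the log2 of the mean contact between the 100 kb on one side and the 100 kb on the other, over the X mean of the same map, so that low scores mark positions that few contacts cross. At the bin X:3850001–3860000, which holds the 3′ parts of ec and roX1, the score was −1.95, which is 3.87-fold below the X mean and the lowest of 2170 X bins with a score. The score rose to 0.01 at the right edge of the window and to −0.65 at its left edge. The depth of this minimum, taken as the mean score 100 kb to either side minus the score itself, was 2.05. Its prominence (the rise needed before a lower minimum is met) was 3.23, the largest of the 153 boundaries called on the X with a prominence of 0.2 or more. No lower minimum exists for the lowest bin, so its place by prominence largely follows from its score. The first rank by score depends on the balancing of the map, because the same bin ranked 15 in unbalanced contacts.

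roX2 marked a boundary as well, though a less extreme one. Its lowest bin in control embryos, X:11580001–11590000, holds the end of roX2, nod, pkm and the pseudogenes CR43217, CR43216 and part of CR43215, and scored −1.47, rank 24 on the X, with a depth of 1.04. A second minimum of −1.42 stood at X:11600001–11610000, on the other side of the bin left out. Gene density differed between the minima. The bin next to that of the roX2 minimum, X:11570001–11580000, holds the starts of 8 other annotated genes besides roX2, among them Polr2A, the largest subunit of RNA polymerase II, the kinetochore gene Kmn1 and e(y)2 of the SAGA complex, together with Reepl1, CG11699, CG11696, CG11695 and asRNA:CR44266. Beside roX1 the bin X:3860001–3870000 holds the 5′ part of roX1, the start of CG2930 and part of yin.

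**Figure D1:**
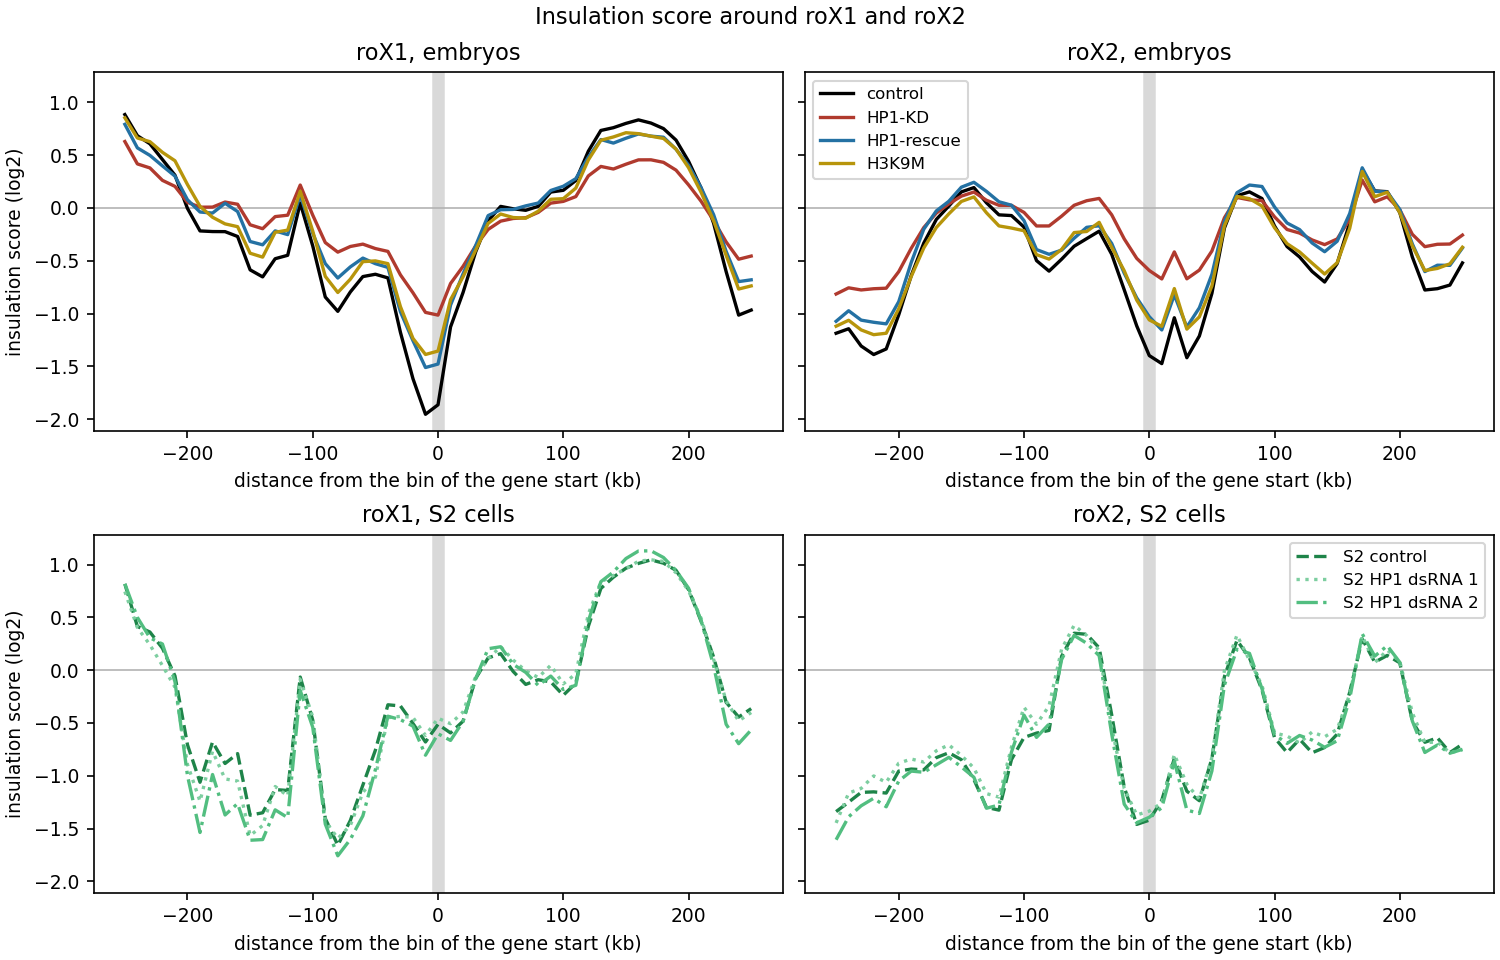
Insulation score (log2 of contacts crossing each 10-kb bin over the X mean) against distance in kb from the bin of the gene start (grey), with 1 line per pooled map, embryos above and S2 cells below. The roX1 minimum reaches −1.95 in control embryos and −1.02 in HP1-KD, and is −0.68 in S2 control, where a lower minimum of −1.66 lies further left.

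In HP1-KD embryos both loci were crossed by more contacts than in control embryos. The roX1 bin X:3850001–3860000 scored −0.99 in HP1-KD, a difference of 0.96 on the log2 scale and the largest rise among the 2170 X bins. The roX2 bin X:11580001–11590000 scored −0.67, a difference of 0.80, with 99.4% of X bins lower. These bins were taken as the lowest of their window in control embryos, which favours a rise in any other map, and at the bins of the gene starts the differences were 0.85 and 0.81. These differences are far above the counting error of a single score, which was 0.01 to 0.02 at the lowest bins of these maps, while the median X bin differed by 0.03. Of the 12 bins in each window, 9 around roX1 and 11 around roX2 scored higher by 0.2 or more in HP1-KD, where 33.4% of X bins did, and none scored lower, where 18.4% of X bins did. Scores of neighbouring bins share most of their contacts, so the bins counted here and below are not independent positions. The 12 roX2 bins include the one left out, X:11590001–11600000, whose score comes from contacts between the bins around it.

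The loss at the roX loci followed that of X boundaries in general when taken as a share of depth. The depth of the roX1 minimum fell from 2.05 to 1.12, so that 54.6% was kept, and at roX2 it fell from 1.04 to 0.48, so that 46.5% was kept. There were 147 X boundaries of control embryos with a depth in both maps, and those with a control depth above 0.2 kept a median of 55.1%. The same limit on control depth applies to the medians of depth kept given below for the other maps. The spread of insulation scores over the X narrowed too, from an SD of 0.61 to 0.36. In absolute terms only 4 of all 147 boundaries lost more depth than roX1, and 36 lost more than roX2. roX1 remained one of the deepest positions of the X in HP1-KD, where X:3860001–3870000 scored −1.02, rank 6.

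HP1-rescue embryos had scores between those of control and HP1-KD embryos at both loci. At the roX1 bin the score was −1.51, which is 0.52 below HP1-KD and 0.44 above control, and at the roX2 bin it was −1.16, which is 0.48 below HP1-KD and 0.32 above control. Against HP1-KD, 5 of the 12 roX1 bins and 11 of the 12 roX2 bins scored lower by 0.2 or more, where 20.1% of X bins did. Against control, 4 roX1 bins and 6 roX2 bins scored higher, where 12.6% of X bins did. No bin of either window moved the other way by 0.2, where 3.5% of X bins scored higher than in HP1-KD and 2.17% lower than in control. The share of control depth was 80.6% at roX1 and 85.1% at roX2, beside a median of 81.0% over X boundaries, so both shares were close to that of the X.

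In H3K9M embryos most X boundaries kept more of their depth than in HP1-KD, and the roX loci kept less than the median. The roX1 bin scored −1.39 in H3K9M, 0.57 above control, and the roX2 bin −1.12, which is 0.35 above control. The depth kept was 73.5% at roX1 and 70.1% at roX2, both below the median of 83.6% over X boundaries, and only 1 of the 147 boundaries lost more depth than roX1. Here 5 bins of each window scored higher by 0.2 or more, where 8.94% of X bins did. The HP1-KD, HP1-rescue and H3K9M maps are all set against the same control map, so a deviation of that map would enter all of these differences.

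The roX1 minimum was shallower in S2 cells than in embryos. In S2 control the roX1 bin X:3850001–3860000 scored −0.68, rank 607 on the X, with a prominence of 0.35 that ranked 151 of 187 boundaries. Its depth was 0.59, which is 28.8% of that in control embryos, beside a median of 91.9% over X boundaries. In S2 cells with HP1 dsRNA 1 it scored −0.62 and was not called as a boundary, and with HP1 dsRNA 2 it scored −0.81, with depths of 0.60 and 0.68. The difference between S2 control and control embryos was 1.27 at this bin, more than in 99.7% of X bins, and only 4 of the 147 boundaries of control embryos lost more depth. The lowest bin within the window in all 3 S2 maps was its first, X:3800001–3810000, with scores of −1.09, −1.16 and −1.38. It holds the end of HIP, which encodes a partner of Hsp70-type chaperones, lncRNA:CR44118 and the start of fd3F, a forkhead factor of chordotonal neurons. This bin lay on the slope of a minimum outside the window.

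That minimum lay 70 kb to the left of the roX1 bin, at X:3780001–3790000, where HIP-R and Tlk, the Tousled-like kinase gene, lie. Its score was −1.66 in S2 control, −1.59 with HP1 dsRNA 1 and −1.76 with HP1 dsRNA 2, with prominences of 2.70, 2.64 and 2.89 that ranked 20, 18 and 16 among the boundaries of those maps. In control embryos the same bin scored −0.98 with a prominence of only 0.35, so that the order of both positions was turned between embryos and S2 cells. Raw coverage differed there too. The S2 maps held 2.53 and 2.33 times the X median of contact ends in the bins X:3860001–3870000 and X:3870001–3880000 for S2 control, and up to 2.77 with HP1 dsRNA 2, compared with 1.42 and 1.62 in control embryos, and the part of this in the S2 scores was not tested.

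Scores around roX2 stayed low in S2 cells, while the depth at the roX2 bin was about that at the roX1 bin. The roX2 bin X:11580001–11590000 scored −1.23 in S2 control, −1.26 with HP1 dsRNA 1 and −1.30 with HP1 dsRNA 2, with depths of 0.54, 0.69 and 0.64. In S2 control this was 52.1% of the depth in control embryos. The bin itself was not called as a boundary in the S2 maps, where the lowest bin of the window was X:11560001–11570000 with −1.46, −1.37 and −1.44 and depths of 0.94, 0.93 and 0.97. That bin holds PGRP-SA, which recognises bacterial cell walls in the Toll pathway, and most of Polr2A. Against control embryos, 9 roX1 bins and 5 roX2 bins scored higher by 0.2 or more in S2 control, where 28% of X bins did, and 1 and 2 scored lower, where 34.8% did.

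HP1 depletion in S2 cells left scores at both loci close to those of S2 control. With HP1 dsRNA 1 the difference was 0.06 at the roX1 bin and −0.03 at the roX2 bin, and with HP1 dsRNA 2 it was −0.13 and −0.07. The counting error of a single score was 0.05 to 0.06 at the lowest window bins of these maps, which are not the roX1 and roX2 bins. In S2 control the roX1 and roX2 bins rested on more contacts, 970 and 934, than the lowest bins, 540 and 636. Their own counting errors were therefore smaller. With either dsRNA 1 bin of the roX1 window, and none of roX2, scored lower by 0.2 or more, where 1.75% of X bins did for dsRNA 1 and 6.08% for dsRNA 2, and none scored higher, where 3.09% and 1.71% did. Both comparisons share the S2 control map.

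The values at the roX2 bin depend on its neighbour X:11590001–11600000. When bins with few contacts were kept, an alternative chosen after the data were seen, the difference at the roX2 bin was 0.47 for HP1-KD against control and −0.07 for HP1-rescue against HP1-KD. It was 0.43 and 0.37 for HP1 dsRNA 1 and HP1 dsRNA 2 against S2 control, and −0.34 for S2 control against control embryos. The roX2 differences between S2 maps are therefore not settled in direction. Those at the roX1 bin kept their sign under all 7 alternatives tried. They were opposite for the dsRNAs, however, at 0.06 with HP1 dsRNA 1 and −0.13 with HP1 dsRNA 2. The latter came as near 0 as −0.00085, so no common direction was settled there either.

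**Figure D2:**
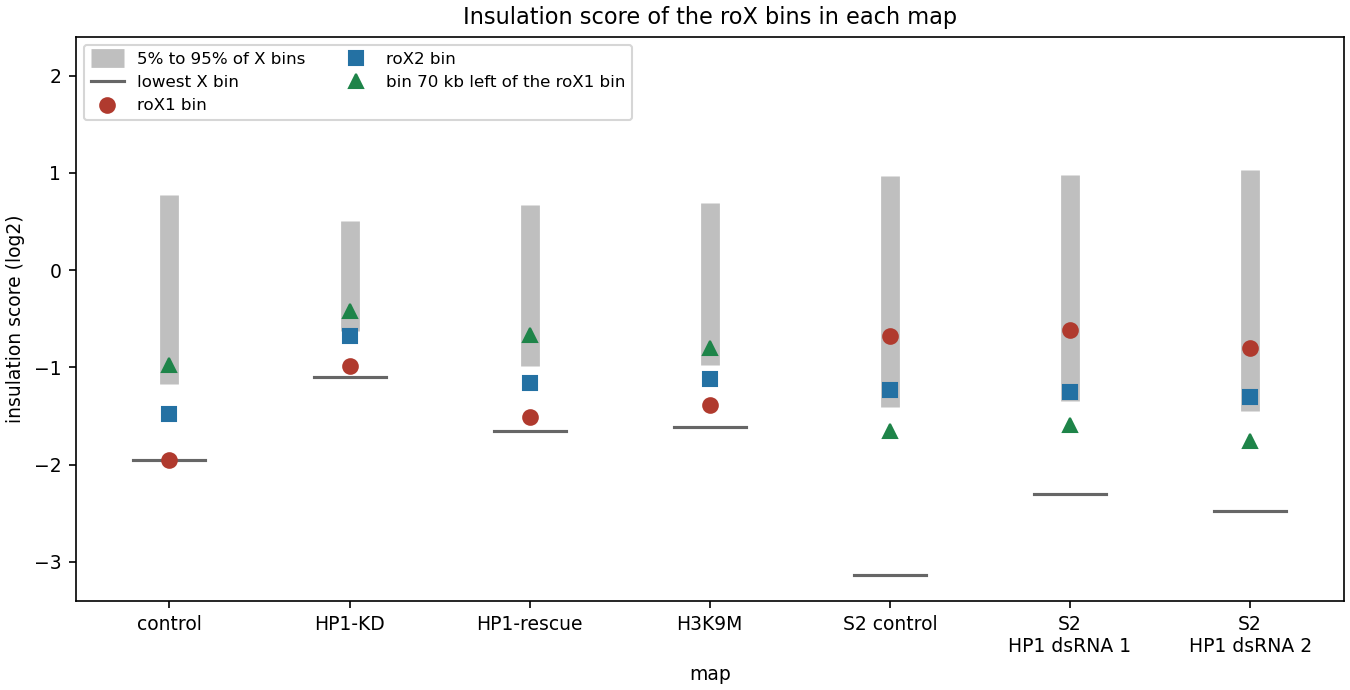
Insulation score (log2) of the roX1 bin, the roX2 bin and the bin 70 kb left of roX1 in each pooled map, beside the range from 5% to 95% of X bins (grey bar) and the lowest X bin (line). The roX1 bin is the lowest of the X in control embryos and lies inside the grey range in all 3 S2 maps, where the bin to its left lies below it.

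The change of contact partners across roX1 was abrupt within single bins. Contacts of X:3860001–3870000, just right of the minimum, with the 500 kb to its right were 1.10 of the X mean at the same distances in control embryos (observed over expected), and those with the 500 kb to its left were 0.290. The log2 ratio of right over left was 1.92 in control, 0.94 in HP1-KD, 1.49 with HP1-rescue and 1.38 in H3K9M. It was 0.37 in S2 control, 0.50 with HP1 dsRNA 1 and 0.48 with HP1 dsRNA 2. In X:3840001–3850000, left of the gene and within ec, the ratio ran the other way, at −1.00 in control, −0.55 in HP1-KD, −0.92 with HP1-rescue, −0.68 in H3K9M and between −0.20 and −0.22 in the S2 maps. These bins on either side of roX1 thus favoured their own side in embryos, less so in HP1-KD, and had little preference in S2 cells. The next bin, X:3870001–3880000, had 1.85 in control but 0.23, 0.19 and 0.13 in S2 control, HP1 dsRNA 1 and HP1 dsRNA 2. Further right, at X:3880001–3890000, S2 cells had a strong preference for the right. The ratio there was 1.71, 1.59 and 1.94 in the S2 maps, in the same order, and 1.41 in control embryos.

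**Figure D3:**
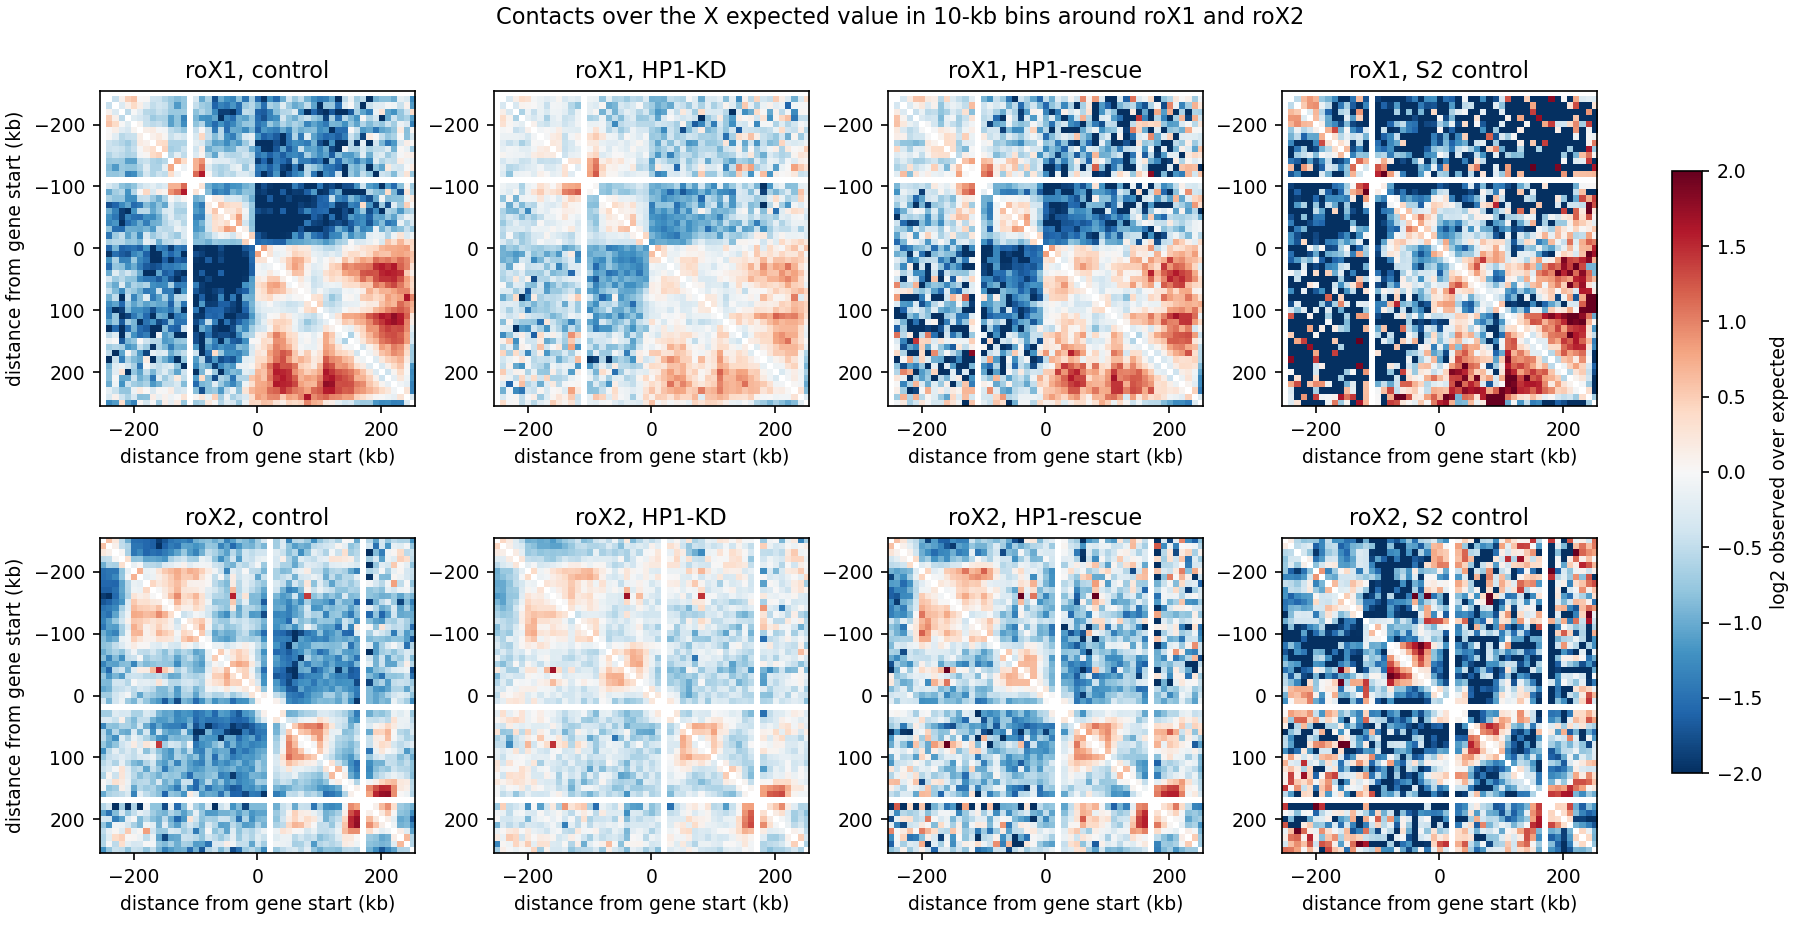
Log2 of contacts over the X mean at the same distance for pairs of 10-kb bins within 250 kb of the roX1 (top) and roX2 (bottom) gene starts in 4 pooled maps, with distance in kb on both axes and white for bins left out or on the diagonal. In control embryos the block of pairs across the roX1 start is depleted (dark blue), this depletion is paler in HP1-KD, and in S2 control it begins further to the left.

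Contacts over 500 kb on either side showed which flank each window met. Inside the roX1 window (pairs 20 kb or more apart) observed over expected was 0.703 in control embryos (95% interval 0.696 to 0.710), 0.762 in HP1-KD, 0.740 with HP1-rescue, 0.735 in H3K9M, and 0.875, 0.878 and 0.852 in S2 control, HP1 dsRNA 1 and HP1 dsRNA 2. With its left flank the roX1 window had 0.689 in control, 0.838 in HP1-KD, 0.785 with HP1-rescue and 0.749 in H3K9M. In the S2 maps this was 0.503 (0.473 to 0.534) in S2 control, 0.439 (0.415 to 0.463) with HP1 dsRNA 1 and 0.443 (0.421 to 0.466) with HP1 dsRNA 2. The left flank was therefore the poor side of roX1 in all 7 maps, and the more so in S2 cells, where 3.3% of X windows in the S2 control map, and 1.05% and 1.19% in the other two, had lower values. With its right flank the roX1 window stood at 1.09 in control, 1.00 in HP1-KD, 1.06 with HP1-rescue, 1.05 in H3K9M, 1.21 in S2 control and 1.24 with either HP1 dsRNA.

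The flanks of roX1 met each other across the window at 0.732 in control, 0.909 in HP1-KD, 0.875 with HP1-rescue, 0.846 in H3K9M, 0.636 in S2 control, 0.615 with HP1 dsRNA 1 and 0.623 with HP1 dsRNA 2. HP1-KD stood above control by 0.31 on the log2 scale, which 85.2% of X windows did not reach, so this gain over 500 kb was not unusual for the X. HP1-rescue stood above control by 0.26, which 95.9% of X windows did not reach, and H3K9M by 0.21, which 91.9% did not.

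roX2 had fewer contacts than expected with its left flank in embryos only, though not unusually few for the X. Its left-hand values lay inside the range from 5% to 95% of X windows in every map. In control 22.99% of X windows had a lower value, and in HP1-KD 36.9% did. Observed over expected with the left flank was 0.739 in control, 0.923 in HP1-KD, 0.774 with HP1-rescue and 0.792 in H3K9M, but 1.04, 1.02 and 1.01 in S2 control, HP1 dsRNA 1 and HP1 dsRNA 2. With the right flank it was 0.943, 0.958, 0.999 and 0.95 in the 4 embryo maps, in the same order, and 1.03, 1.04 and 0.998 in the S2 maps. These right-hand values differ little between maps. Inside the roX2 window it was 0.737 in control, 0.890 in HP1-KD, 0.774 with HP1-rescue, 0.746 in H3K9M and 0.630, 0.649 and 0.624 in the S2 maps. Across the window the values were 0.679 in control, 0.869 in HP1-KD, 0.816 with HP1-rescue, 0.843 in H3K9M and 0.871, 0.917 and 0.908 in the S2 maps. The gain across roX2 was 0.35 for HP1-KD and 0.31 for H3K9M against control, which 90.0% and 98.1% of X windows did not reach. The H3K9M map thus had nearly as large a gain across roX2 as HP1-KD, beside an X median of 0.03 in either comparison.

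**Figure D4:**
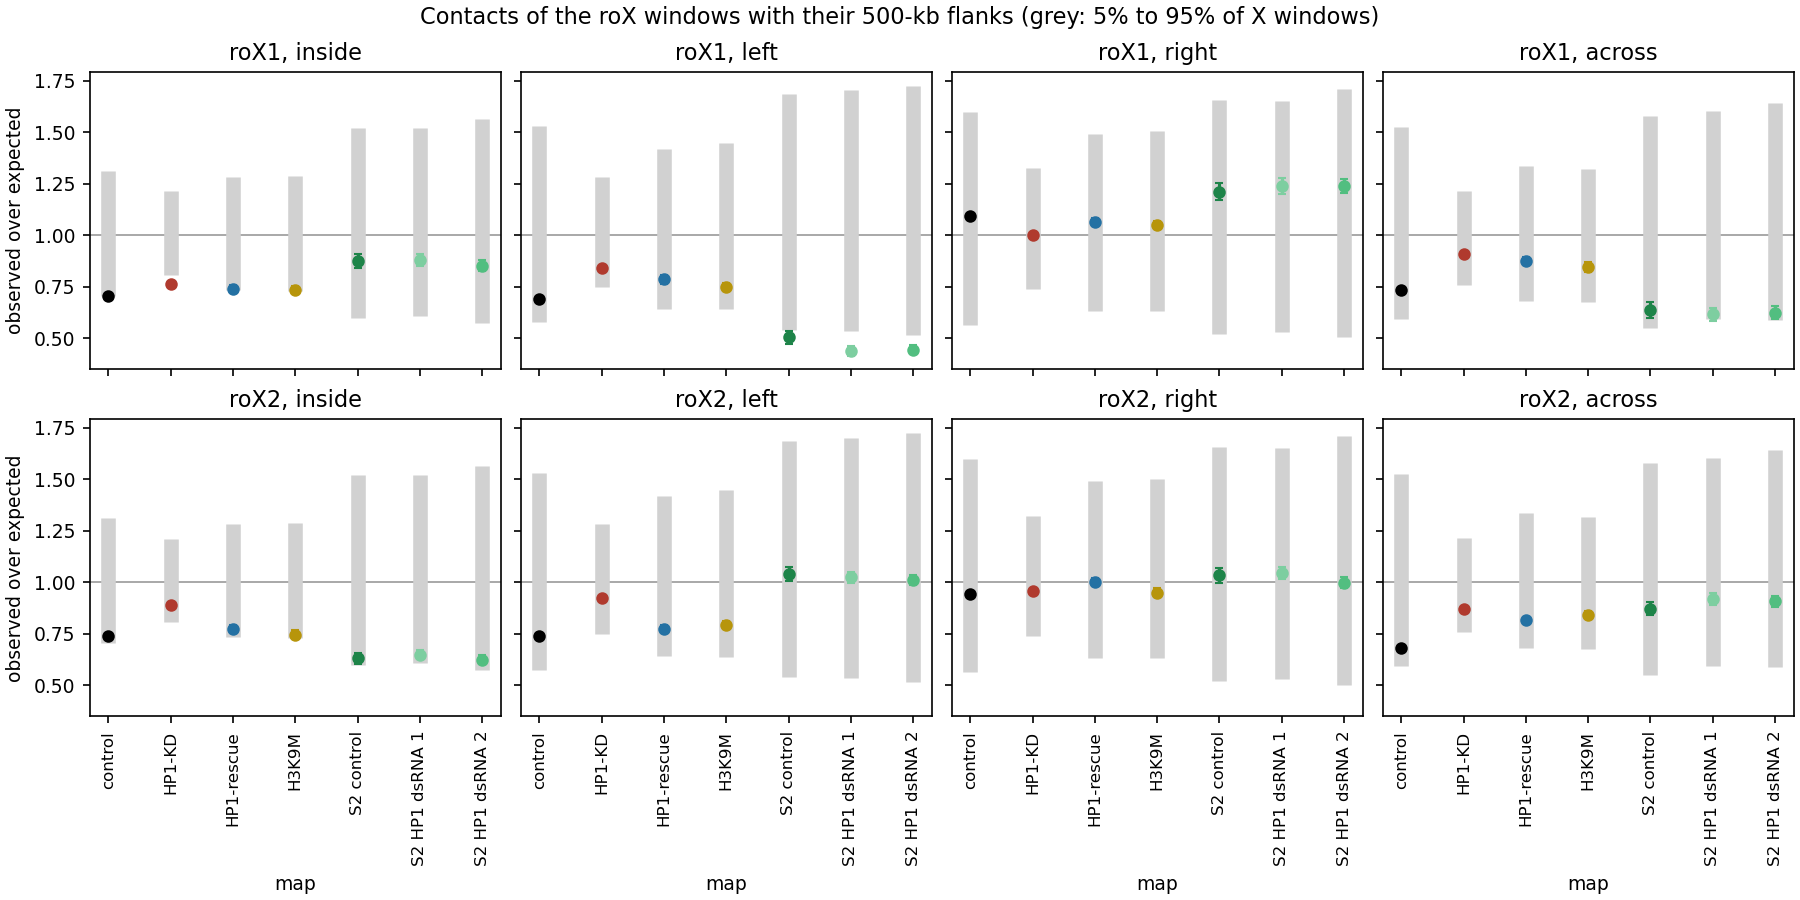
Observed over expected contacts of the roX1 (top) and roX2 (bottom) windows inside the window, with the 500-kb left and right flanks and between the flanks across the window, by pooled map, with 95% counting intervals. Grey bars span 5% to 95% of X windows, and the left flank of roX1 lies below that range in the 3 S2 maps.

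Along the rest of the X, roX1 made more contacts than the X average in control embryos. The profile took every X bin of 40 kb that lay 500 kb or more from the window, 525 bins for each locus. The median observed over expected of roX1 was 1.19 in control, 1.06 in HP1-KD, 1.03 with HP1-rescue, 1.06 in H3K9M, and 0.923, 0.881 and 0.877 in S2 control, HP1 dsRNA 1 and HP1 dsRNA 2. For roX2 it was 0.962, 0.949, 0.863, 0.914, 0.967, 1.04 and 0.970 in the same order. The excess in control embryos was thus seen for roX1 only, and it was smaller, 1.08, when the control map was thinned to the depth of the shallowest map. The median roX1 bin held 47 contacts in control, 30 in HP1-KD, 9 with HP1-rescue, 9 in H3K9M and 4 in S2 control. Such medians are not given for other X windows, so whether 1.19 is unusual on the X was not tested.

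By distance the roX1 excess in control was widest on the left, between 2 and 4 Mb away, at 1.33 (1.30 to 1.36), where HP1-KD had 1.07 (1.05 to 1.09), HP1-rescue 1.06 and H3K9M 1.09. It held to the right from 0.5 to 16 Mb, at 1.15 to 1.26 in control and 0.998 to 1.15 in HP1-KD. Of pairs of 40-kb bins that join roX1 to the X and had contacts in both maps, 392 of 1476 were lower in HP1-KD by 0.5 or more on the log2 scale, which is 26.6%, where 20.2% of all X pairs were. Another 233 were higher, 15.8%, where 23% of all X pairs were. For roX2, 271 of 1560 pairs were lower (17.4%) and 323 were higher (20.7%), so its profile did not lean the same way.

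In the other comparisons the shares of roX1 and roX2 pairs past the same limit mostly stayed near those of all X pairs, and many pairs had no contact in one of the maps. Against control, 331 of 1246 roX1 pairs (26.6%) and 419 of 1423 roX2 pairs (29.4%) were lower in HP1-rescue, where 22.6% of X pairs were, and 21.2% and 19.8% were higher, where 27.7% were. In H3K9M 24.6% of roX1 pairs and 26.1% of roX2 pairs were lower than in control, where 22.7% of X pairs were, and 23.6% and 24.2% were higher, where 28.5% were. Against HP1-KD, 26.3% of roX1 pairs and 19.9% of roX2 pairs were higher in HP1-rescue, where 26.6% of X pairs were, and 21.6% and 30.0% were lower, where 23.6% were. roX2 thus had a larger share of lowered pairs than the X in HP1-rescue against either map. In S2 cells with HP1 dsRNA 1, 37.7% of roX1 pairs and 34.7% of roX2 pairs were lower than in S2 control, where 35.1% of X pairs were, and 27.9% and 29.4% were higher, where 29.3% were. With HP1 dsRNA 2 the shares were 38.1% and 34.8% lower, where 36.3% of X pairs were, and 26.3% and 29.2% higher, where 28.3% were. Between S2 control and control embryos 29.1% of roX1 pairs and 43.0% of roX2 pairs were higher in S2 control, where 42.1% of X pairs were, and 34.0% and 24.1% were lower, where 24.4% were, so that roX1 leaned to fewer contacts.

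S2 cells had a steep contrast next to roX1. Between 0.5 and 1 Mb to the left roX1 had 0.509 (0.429 to 0.599) of the expected contacts in S2 control, 0.553 with HP1 dsRNA 1 and 0.577 with HP1 dsRNA 2, compared with 0.971 in control embryos. To the right over the same distances it had 1.36, 1.40 and 1.25 in the S2 maps and 1.17 in control embryos. roX2 instead had its highest band on the left in S2 cells, 1.35 between 2 and 4 Mb away in S2 control, 1.45 with HP1 dsRNA 1 and 1.51 with HP1 dsRNA 2, where control embryos had 1.02. In each of these bands the 3 S2 maps lay on the same side of control embryos.

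Single partners could be read only near the loci. In 31 of the 525 bins for roX1 and 35 for roX2 at least 20 contacts were expected in every map. The highest of these for roX1 in control embryos was X:2080001–2120000, with the starts of csw (the phosphatase corkscrew), Unc-76 and CG16903, at 2.02 (1.87 to 2.19). It had 1.22 in HP1-KD, 1.34 with HP1-rescue, 1.27 in H3K9M, and 0.739, 1.25 and 0.919 in the S2 maps. Partners named here were ranked in 1 map, which favours a more extreme value in that map than in the others. Next came X:5880001–5920000, with Act5C, Shmt, CG4020, CG12236, CG3726, lncRNA:CR45668 and asRNA:CR44108, at 1.53, and X:5640001–5680000, with OtopLa, OtopLc, Sirt4, Rab18, RpL35, Tre1, CG4119 and asRNA:CR45520, at 1.51, which had 1.25 and 1.16 in HP1-KD. The lowest lay close to the left of the gene, at 0.889 in the bin of Sgs4, Pig1 and ng1 to ng4, genes of the salivary gland cluster, and at 0.891 and 0.921 in those that hold CG3603 with 9 others, and CG4116.

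In S2 control the 3 highest roX1 partners were all to the right, at 1.7 for X:4880001–4920000 (CG6927, CG32772, CG4041 and Hgsnat), 1.67 for X:4640001–4680000 (fzr, Cbp80, Torsin, mRpL30, HLH4C and 4 CG genes) and 1.66 for X:4600001–4640000 (peb, pon, Alms1a, Alms1b and lncRNA:CR32773). These 3 bins had 1.69, 1.83 and 1.62 with HP1 dsRNA 1 but 1.01, 1.84 and 1.24 with HP1 dsRNA 2. The lowest were to the left, at 0.331 for the bin of dnc, the cAMP phosphodiesterase dunce, with Fcp3C, CG18508 and CG3939, 0.451 for that of rst, and 0.482 for that of Sgs4. Control embryos had 1.05, 0.970 and 0.889 at these 3 bins. With HP1 dsRNA 1 they had 0.368, 0.363 and 0.429, and with HP1 dsRNA 2 0.491, 0.811 (0.520 to 1.21) and 0.390, so that the bin of rst was not as low in all S2 maps. Further left, from 1 to 2 Mb away, roX1 had 1.04, 0.930 and 0.889 of the expected contacts in the 3 S2 maps.

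For roX2 the highest partner in S2 control was X:12600001–12640000, with Tomosyn, Aven, Fpgs1, mir-970 and 6 others, at 2.79 (2.20 to 3.48). It had 2.25 with HP1 dsRNA 1 and 2.10 with HP1 dsRNA 2, against 1.22 in control embryos and 1.19 to 1.28 in the other embryo maps. X:10840001–10880000, with sbr (an mRNA export factor), feo, Pgls, sofe and 6 CG genes, had 2.53 in S2 control and 1.08 in control embryos, and X:12560001–12600000, with hwt, Pits, LIMK1, Sec16 and CG1824, had 2.15 and 1.19. In control embryos X:13720001–13760000 led with 1.42, which holds mus101, g, Grip91, Pdcd4, Rtc1, Mrgn1, Yp3 and 5 others, followed by X:12640001–12680000 with CkIalpha, Tis11, mir-9377 and lncRNA:CR33963 at 1.29. The lowest roX2 partners of control embryos were 3 bins between X:10600001 and 10720000, with X11Lbeta, Rab9Db, CG1628, CG43347 and CG9806 in the first, at 0.547, 0.593 and 0.597, which had 0.765, 0.864 and 0.717 in HP1-KD. The last of them holds Rab9E, CG2111 and CG12637, and no gene starts in the middle one. The lowest of S2 control were X:12400001–12440000 (Pkcdelta, CG32651, CG2574 and lncRNA:CR32652) at 0.235, X:12320001–12360000, where no gene starts, at 0.394, and X:12160001–12200000 (CG1924) at 0.405.

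The profiles of both loci over the 496 bins they shared had a Pearson correlation of 0.537 in control embryos and of 0.290 in HP1-KD, 0.209 with HP1-rescue and 0.191 in H3K9M. In the S2 maps it was 0.245, 0.062 and 0.190. Both profiles of a map come from the same libraries and share their depth, which differs between maps.

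The contact of roX1 with roX2 themselves, 7720 kb apart, was compared with all 1437 window pairs of the X at that distance. It stood at 1.33 in control embryos (1.13 to 1.55, 166 contacts), 1.22 in HP1-KD (1.01 to 1.45, 124 contacts), 1.23 with HP1-rescue (0.865 to 1.69, 37 contacts) and 1.75 in H3K9M (1.28 to 2.34, 45 contacts). In S2 control it was 1.22 (0.736 to 1.91, 19 contacts), with HP1 dsRNA 1 0.816 (0.484 to 1.29, 18 contacts) and with HP1 dsRNA 2 0.970 (0.655 to 1.39, 30 contacts). Of the window pairs at the same distance 90.0% had a lower value in control embryos, 83.1% in HP1-KD, 76.0% with HP1-rescue and 98.96% in H3K9M, and 40.6% to 70.4% in the S2 maps.

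Over whole windows the excess in control embryos was not particular to the roX pair. The gene bins alone and the map at equal depth gave higher values for the pair, listed in the closing part. Both settings rest on fewer contacts than the 166 of the whole windows at full depth, and their counting intervals are not given. No shifted pairs are given for those settings. Each window was moved by 120 or 240 kb to either side, alone or with the other, which gave 24 shifted pairs. Of these, 16 had a lower value than the roX pair and the median was 1.22. Some shifted pairs still hold 1 roX window, and those that kept roX1 in place stood at 1.35 to 1.44. Against the 8 window pairs that surround it the roX pair stood at 1.07. In H3K9M all 24 shifted pairs had a lower value, with a median of 1.14. No difference between maps was detectable at this depth, since the ratio was 0.916 (0.720 to 1.16) for HP1-KD, 0.925 (0.629 to 1.33) for HP1-rescue and 1.32 (0.926 to 1.84) for H3K9M, each against control. It was 1.01 (0.679 to 1.47) for HP1-rescue against HP1-KD, 0.6672 (0.330 to 1.34) and 0.793 (0.432 to 1.49) for HP1 dsRNA 1 and HP1 dsRNA 2 against S2 control, and 0.920 (0.540 to 1.48) for S2 control against control embryos.

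**Figure D5:**
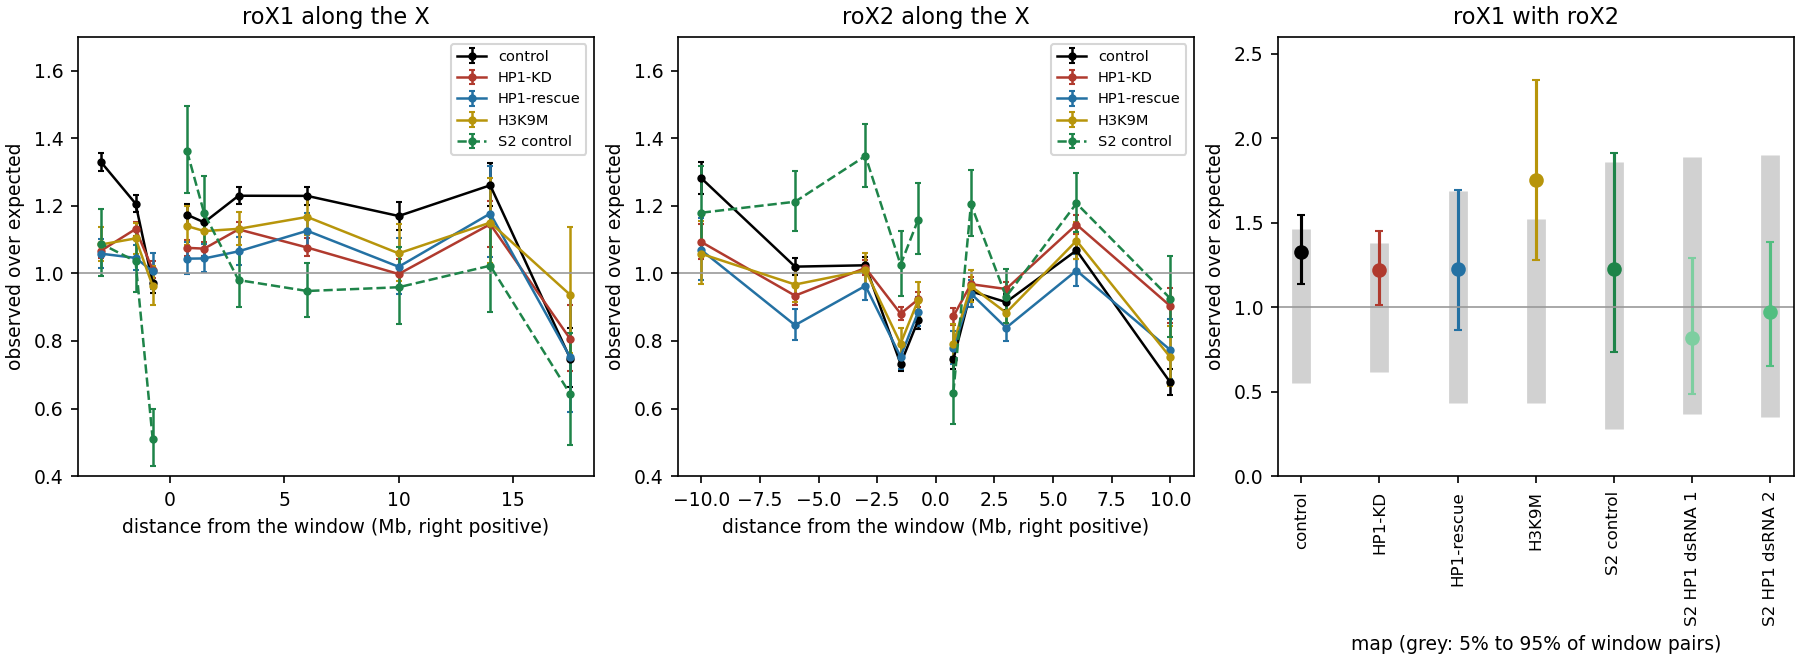
Observed over expected of roX1 and roX2 with X bins by distance in Mb (right positive, 95% counting intervals) in 5 pooled maps, and of roX1 with roX2 in all 7 maps beside 5% to 95% of X window pairs at the same distance (grey). roX1 in control embryos reaches 1.33 at 2 to 4 Mb to its left, S2 control has 0.509 close to its left, and the intervals of the roX1 with roX2 contact overlap between maps.

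Contacts of the loci with GA-rich parts of the X stayed within the range of other X windows. The richest X bins, 288 with 4 or more runs of GA repeated 4 times, were set against the 1897 others at 500 kb or more. The log2 ratio for roX1 was 0.03 in control, −0.02 in HP1-KD, 0.01 with HP1-rescue and −0.02 in H3K9M, and for roX2 it was 0.05, 0.03, 0.08 and 0.05, where the median X window had 0.04 to 0.06. In S2 cells roX1 had 0.19, 0.04 and −0.07 and roX2 had 0.04, 0.03 and 0.13, with a median of 0.03 over X windows. The roX1 value in S2 control was above 93.4% of X windows, but was −0.07 when the richest 20% of bins were taken.

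The other genes of dosage compensation were read at the bin of their start. These were mof, the acetyltransferase of the complex, which lies on the X as do the roX genes, and the autosomal msl-1 and msl-2, which form its scaffold, msl-3, its chromodomain subunit, mle, the RNA helicase, and Clamp. In control embryos their scores were −0.90, −0.78, −1.18, −0.30, −0.56 and −0.59, all above those of the roX1 and roX2 start bins, −1.86 and −1.40. In HP1-KD 5 of the 6 scored higher by 0.2 or more, where 28.8% of bins on the 5 arms did, by 0.45 at mof, 0.34 at msl-1, 0.53 at msl-2, 0.23 at mle and 0.26 at Clamp, and msl-3 differed by 0.20, just under the limit. At the roX1 and roX2 starts the differences were 0.85 and 0.81.

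Against control, mof alone of the 6 passed 0.2 in HP1-rescue (0.24, where 9.04% of bins did and 2.57% scored lower) and in H3K9M (0.23, where 7.23% did). Against HP1-KD, mof and msl-2 scored lower in HP1-rescue by 0.2 or more, where 17.4% of bins did and 4.72% scored higher, with differences of −0.21 and −0.34. None of the 6 passed 0.2 with either HP1 dsRNA, where 3.48% and 3.4% of bins scored higher and 1.68% and 5.42% scored lower. Between S2 control and control embryos mof, msl-2 and msl-3 scored higher, where 26.6% of bins did, and msl-1, mle and Clamp lower, where 35.5% did, with the largest differences at msl-1 (−0.97) and msl-3 (0.78). The difference was 1.35 at the roX1 start and −0.02 at the roX2 start.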

How the data were processed

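The authors processed reads with HiC-Pro 2.11.1 on dm6 (submitters' processing notes), pooled libraries by group and deposited 7 maps whose signal is the iteratively corrected contact value of a pair of 10-kb bins. The deposited values of a map sum to between 49999962 and 50000042, and replicate values were not used here. A mark in the name of the HP1-KD map leaves it unsure whether all 5 libraries of the labels were pooled.

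Correction factors were solved from pairs between chromosomes, which returned whole contacts for 100% of values under 20 contacts (tolerance 0.02) in every map. Scripts ran under Python 3.11.15 (pandas 2.3.3, numpy 2.4.6, scipy 1.17.1) and were tested on simulated data. X bins below 10% of the median whole contacts in any map were left out, a filter chosen after the files were seen. Insulation used a diamond of 10 by 10 bins, and expected values were the X mean at each distance. A bin was called at 0.2 (insulation, log2) and a 40-kb pair at 0.5 (log2 observed over expected). Intervals are exact Poisson at 95%, and cover counting error only because each group is 1 pooled map. PCR reads without molecular identifiers may not be independent molecules, so the intervals may be too narrow even for that.

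Named genes are those of the gene bins and of the lowest bins, those that start in the 3 highest and 3 lowest 40-kb partners in control embryos and S2 control, and 6 other dosage compensation genes. HIP-R and Tlk fall outside this rule and were named after their values were seen. Members and lists were chosen with earlier results of these data known. Alternatives were unbalanced contacts, equal depth, stricter and looser bin filters, other diamond, flank, window and bin sizes, other expected values, other distances and another motif length.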

Additional observations from a re-analysis of the deposited data

Results flagged for a closer look

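Contacts of the roX1 window with its left 500-kb flank moved in opposite directions when HP1 was depleted in embryos and in S2 cells. The log2 difference was 0.28 in HP1-KD against control embryos, and it was −0.20 with HP1 dsRNA 1 and −0.18 with HP1 dsRNA 2 against S2 control. Both S2 values share the S2 control map, each comparison rests on 1 pooled map a side, and the difference between embryos and S2 cells was not tested. Of all X windows, 84.1% had a lower value than roX1 in HP1-KD, and 1.37% and 3.25% had a lower value with the S2 dsRNAs.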

How the results depend on the processing

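Of 78 values of the main comparisons under alternatives, 45 stayed the same, 32 moved and 1 changed sign. A value stayed the same when it lay within the counting interval. Ranks and counts of bins or genes have no such interval and were judged by the size of their change. No paired analysis was possible because each group is 1 pooled map, and for the same reason leaving out single libraries was not run.

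Without balancing, the rank of the roX1 bin in control was 15, the roX2 difference of S2 control minus control was 0.63, and the median profile values were 1.32 (roX1) and 0.992 (roX2). At equal depth HP1-KD over control across the window was 0.28 (roX1) and 0.32 (roX2), profile medians were 1.08 and 0.890, and the roX1 with roX2 contact in control was 1.76. Without the 10% of bins with the fewest contacts the rank was 2 and the roX1 value across was 0.28. With bins of few contacts kept (chosen after the data were seen) the rank was 2, values across were 0.34 and 0.38, profile medians 1.18 and 0.905, and roX2 differences 0.47 (HP1-KD minus control) and −0.34 (S2 control minus control). The 50-kb diamond gave roX2 differences of 0.73 and 0.39, and the 200-kb diamond 0.74 for HP1-KD at roX2, 0.91 for HP1-KD at roX1 and 0.82 for S2 control at roX1. Values across the windows were 0.54 and 0.48 with 250-kb flanks, 0.19 and 0.23 with median expected values, and 0.36 and 0.39 without the outermost bins. Bins of 20 kb gave profile medians of 1.16 and 0.936. The pair was at 1.07 against surrounding pairs and at 1.84 for the gene bins.

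Some differences within counting error of 0 changed sign. At the roX2 bin, HP1 dsRNA 1 minus S2 control kept its sign under 4 of 7 alternatives (−0.10 to 0.43) and HP1 dsRNA 2 under 5 (−0.15 to 0.37), as did H3K9M over control to the right of roX2 (5 of 7, −0.03 to 0.12). With the richest 20% of bins, roX1 contacts with GA-rich bins less the X median turned from 0.16 to −0.10 in S2 control and from −0.10 to 0.03 with HP1 dsRNA 2. Of 825 further values, 15 contacts inside, beside or across the windows changed sign although the value as reported lay beyond counting error of 0 (log2). Without balancing these were −0.0051 for HP1-rescue over control inside roX1, −0.11 for S2 control over control to the right of roX1, 0.42 for S2 control over control inside roX2 and −0.053 for HP1-rescue over HP1-KD to the right of roX2. With median expected values they were 0.047 for HP1-rescue over HP1-KD and 0.83 for S2 control over control across roX1, −0.10 for HP1-KD over control to the right of roX2, and 0.012 for HP1-rescue over HP1-KD and −0.26 for HP1 dsRNA 1 over S2 control across roX2. S2 control over control across roX1 was 0.060 with 250-kb flanks. HP1-KD over control to the right of roX2 was −0.010 at equal depth, and HP1-rescue over HP1-KD across roX2 was then 0.014. HP1-rescue over HP1-KD to the right of roX2 was −0.019 without the 10% of bins with the fewest contacts and −0.031 without the outermost bins, and inside roX2 it was 0.013 with bins of few contacts kept. The cause was not tested.

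Depth limits the S2 maps most, where the median 40-kb profile bin held 4 to 8 contacts. It also limits the roX1 with roX2 contact, which rests on 18 to 166 contacts over whole windows at full depth. The gene bins and the control map at equal depth held fewer of these contacts than the whole windows of that map at full depth.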
